A study of Mus musculus with 18 samples.

Results

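The 9 genes described here encode receptors for lipid mediators: the prostanoid receptors Ptgir, Ptger2 and Ptger4, the leukotriene receptors Cysltr1, Cysltr2 and Ltb4r1, the sphingosine 1-phosphate receptors S1pr1 and S1pr4, and the cannabinoid receptor Cnr2. They are 9 of 18193 genes measured, and were read from all 11 probe sets annotated to these symbols alone. Ptgir, Cysltr1 and Cnr2 were chosen by measured values, because their level differed between genotypes in these same arrays. Their genotype differences are therefore given as a description with no test, while the 6 other receptors were not picked on genotype. A member with more than 1 probe set (Cysltr1 and Ptger4) was tested on its brightest one, and values of the other are given as well.

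The study measured gene expression in CD4 T cells of C57BL/6 mice aged 9 to 15 weeks on Affymetrix arrays, to follow Hedgehog signalling before and early in T cell activation. Stimulated cells spent 6 h with anti-CD3 and anti-CD28 antibodies, a standard mimic of antigen recognition plus co-stimulation, and came from Gli2A Tg, Gli2R Tg and wild type (WT) mice. Resting cells of the same genotypes, Gli2A Tg, Gli2R Tg and WT, were lysed fresh after magnetic bead purification from spleen. Each of the 6 groups had 3 arrays, 18 in all. Gli2A and Gli2R name activator and repressor forms of Gli2, a transcription factor through which Hedgehog signals reach their target genes, and Tg marks a transgene. The labels used here give neither the promoter that drives the transgenes nor whether the 3 arrays of a group came from separate mice, so p-values measure only the spread between these samples. Cells cultured for 6 h without antibodies were not analysed here, so stimulation and culture cannot be told apart.

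Prostanoids and leukotrienes are made from arachidonic acid by cyclooxygenases and 5-lipoxygenase. They act through G protein-coupled receptors: the prostacyclin receptor and the prostaglandin E2 receptors encoded by Ptger2 and Ptger4 couple to Gs and raise cyclic AMP, a brake on T cell receptor signals. Sphingosine 1-phosphate, which is abundant in blood and lymph, draws T cells out of lymphoid organs through S1pr1, and activated T cells lose this receptor for a time and stay in the tissue. Cnr2 encodes the cannabinoid receptor of immune cells, which couples to Gi and is known best from B cells and macrophages.

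Levels are the logarithm (log2) of the deposited intensity plus 16, after quantile normalization, a scale that understates the changes of dim genes. Levels of different probe sets are not set against each other, because each binds with its own strength.

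Stimulation split the arrays on the first principal component, with 62.8% of the variance, and genotype moved few genes. Ptch1, which encodes the receptor for Hedgehog ligands and is induced by Gli factors, was higher in Gli2A Tg than in WT cells by 2.12 ± 0.16 (SE, log2) when stimulated and by 3.11 ± 0.16 at rest. The stimulated difference lost its call on the mean of its probe sets (1.29, adjusted p = 0.0663) and in a fit of the compared groups alone (adjusted p = 0.0682). Replicate 2 of stimulated Gli2A Tg cells lay away from all others on component 3 (51.0, next array 16.6), and it also had the highest actin 3'/5' ratio, a sign of RNA quality. Replicate 3 of resting Gli2A Tg cells did so on component 2 (55.4, next resting array 11.4). None of the 8 T cell markers measured fell below the 25th percentile of gene levels, 5.37, in any group, and their summed intensity was 40528 to 48749 in stimulated and 67190 to 98483 in resting arrays. T cell markers were also lower after stimulation. In WT cells limma called Cd3e (-2.73), Cd3g (-2.26), Cd3d (-1.73), Trat1 (-1.30), Cd4 (-1.30) and Cd5 (-0.43) lower. Cd2 (0.09) and Cd28 (0.23) were not called there. All 13 macrophage and monocyte markers measured were lower after stimulation (median log2 difference -5.14), and their summed intensity was 1218 to 5595 in stimulated and 47580 to 116546 in resting arrays. Fewer members of other lists were lower: 5 of 7 neutrophil, 4 of 9 eosinophil, basophil and mast cell, 3 of 6 dendritic cell, 6 of 9 erythroid and platelet, 5 of 7 CD8 T and NK cell (2 higher) and 3 of 9 B cell markers (2 higher). With the 3 genotypes averaged, 29.5% of all genes were called lower and 27.7% higher, and the B cell counts lay near these shares. Fewer cells of a type and less RNA per cell cannot be told apart in such bulk samples, and the part of these cells in the results below was not tested. By sex-linked genes, male mice contributed to 2 of 3 stimulated Gli2R Tg, 1 of 3 stimulated WT and 2 of 3 resting WT arrays and to none in the remaining 3 groups.

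Stimulation changed 8 of the 9 receptors, 4 upward and 4 downward, when the 3 genotypes were averaged. The leukotriene receptors Cysltr1 and Ltb4r1 and the prostaglandin E2 receptors Ptger2 and Ptger4 rose. The cannabinoid receptor Cnr2, the sphingosine 1-phosphate receptors S1pr1 and S1pr4 and the prostacyclin receptor Ptgir fell. Cysltr2 did not pass the test. This comparison sets the 9 stimulated against the 9 resting arrays and is independent of any genotype difference, so it was tested for all members with limma, and p was adjusted by Benjamini and Hochberg over all genes. The same rule called 57.2% of all genes (27.7% higher and 29.5% lower), so a call in this comparison is common among genes at large. The median difference of the 9 receptors, 0.02, lay near that of all genes, 0.01.

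**Figure D1:**
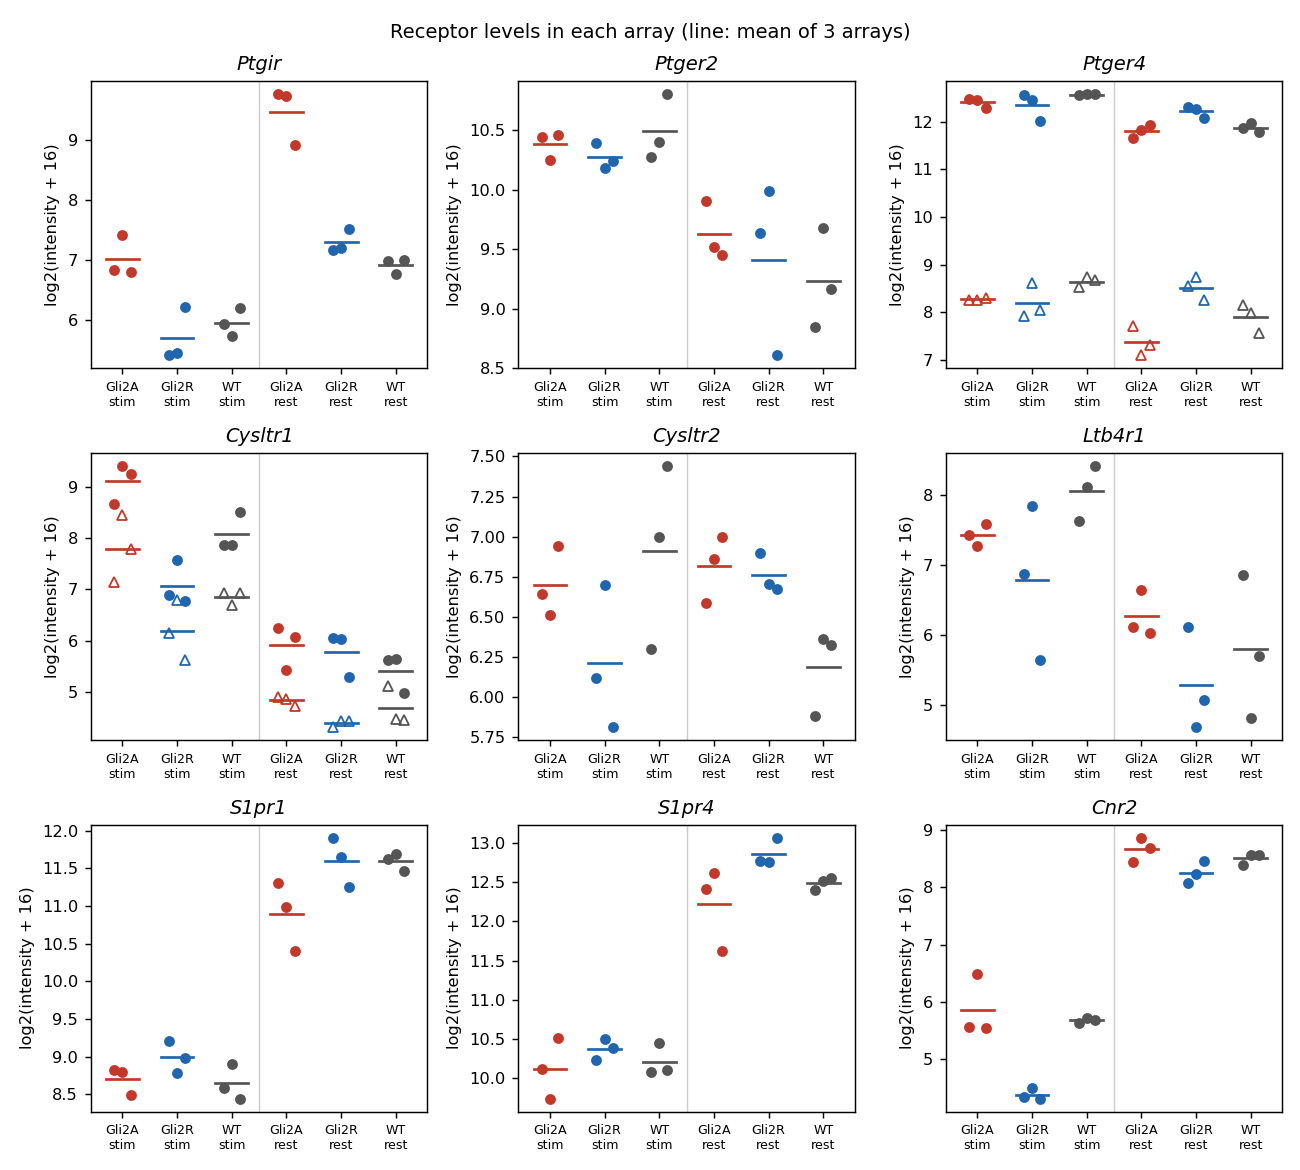
Level of each receptor in each array, as log2(intensity + 16) after quantile normalization, in stimulated (stim) and resting (rest) cells of Gli2A Tg, Gli2R Tg and WT mice. Each point is an array and each line the mean of 3 arrays, and open triangles show the dimmer probe set of Ptger4 and Cysltr1. Cnr2 lay between 4.31 and 6.49 in all stimulated arrays and between 8.08 and 8.87 in all resting arrays.

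Promoter sequences are shown for the members that fell and had an entry in the RefSeq promoter table (GRCm38.p6, 250 bases before to 50 after the gene start) so that their starts can be read side by side. The table held 8 windows of 7 members. It lacked S1pr1, which fell, and Cysltr1, which rose, so their promoters were not searched. The motif searched was CACCC on both strands (GGGTG on the other strand), the core that factors of the KLF family bind, and its matches are in capitals. The windows are chr7:16906240-16906539 (plus strand) for Ptgir, chr10:81500088-81500387 (minus strand) for S1pr4, and chr4:135894939-135895238 and chr4:135911430-135911729 (both plus strand) for Cnr2.
Ptgir: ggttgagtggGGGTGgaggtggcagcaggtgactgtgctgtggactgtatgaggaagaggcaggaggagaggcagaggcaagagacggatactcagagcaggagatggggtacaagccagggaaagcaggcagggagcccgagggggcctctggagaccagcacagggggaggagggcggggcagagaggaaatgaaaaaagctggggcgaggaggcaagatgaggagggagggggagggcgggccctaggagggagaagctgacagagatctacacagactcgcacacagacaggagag
S1pr4: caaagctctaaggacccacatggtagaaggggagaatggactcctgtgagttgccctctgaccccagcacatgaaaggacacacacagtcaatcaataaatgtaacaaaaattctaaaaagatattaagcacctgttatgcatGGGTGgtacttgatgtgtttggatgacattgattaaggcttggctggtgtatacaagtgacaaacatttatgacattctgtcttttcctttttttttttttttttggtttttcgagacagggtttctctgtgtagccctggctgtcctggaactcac
Cnr2, first window: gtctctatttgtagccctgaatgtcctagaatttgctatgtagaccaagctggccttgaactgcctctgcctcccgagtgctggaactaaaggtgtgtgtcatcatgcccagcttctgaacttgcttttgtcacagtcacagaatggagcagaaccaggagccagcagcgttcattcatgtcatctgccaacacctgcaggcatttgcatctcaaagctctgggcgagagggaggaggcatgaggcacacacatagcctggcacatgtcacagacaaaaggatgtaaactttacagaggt
Cnr2, second window: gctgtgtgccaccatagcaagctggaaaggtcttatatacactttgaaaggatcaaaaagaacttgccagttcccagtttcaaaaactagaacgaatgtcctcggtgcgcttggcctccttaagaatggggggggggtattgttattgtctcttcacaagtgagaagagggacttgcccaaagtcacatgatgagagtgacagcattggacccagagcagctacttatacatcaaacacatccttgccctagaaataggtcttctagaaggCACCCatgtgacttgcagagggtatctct
The core was found 1 time each in Ptgir, S1pr4 and the second Cnr2 window and 0 times in the first Cnr2 window. Among members that rose or did not pass, it was found 0 times in Ptger2, 3 times in Ptger4, 3 times in Cysltr2 and 5 times in Ltb4r1. It was thus in 6 of 8 member windows, beside 57.5% of 32851 windows of all genes, so such a match is common. The Gli consensus GACCACCCA, which holds the core CACCC, was in 0 member windows beside 0.253% of all windows, and the cyclic AMP response element TGACGTCA in 0 beside 1.79%, both searched on both strands. A match is a description of the letters, and a missing one says only that they are not in these windows.

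Ptgir encodes the receptor for prostacyclin, a short-lived prostanoid of the vessel wall. It is on chromosome 7 (16906490 to 16910905, GRCm38.p6) and has 1 probe set, 1427313_at. In stimulated cells its log2 level was 6.83, 7.42 and 6.80 in Gli2A Tg, 5.42, 5.46 and 6.22 in Gli2R Tg and 5.94, 5.74 and 6.21 in WT arrays. In resting cells it was 9.76, 9.73 and 8.92 in Gli2A Tg, 7.17, 7.21 and 7.52 in Gli2R Tg and 6.99, 6.77 and 7.01 in WT arrays. Within every genotype all stimulated arrays lay below all resting ones, while the stimulated Gli2A Tg arrays overlapped the resting WT arrays. Averaged over genotypes Ptgir fell by 1.67 ± 0.15 (SE) on the log2 scale, which is 3.18-fold lower (adjusted p = 1.16e-07).

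The genotype pattern for which Ptgir was picked was present in both conditions. The Gli2A Tg arrays lay above all WT and all Gli2R Tg arrays, with a difference from WT of 1.05 ± 0.26 in stimulated and 2.54 ± 0.26 in resting cells, and from Gli2R Tg of 1.32 ± 0.26 and 2.16 ± 0.26. Gli2R Tg differed from WT by -0.26 ± 0.26 in stimulated and 0.38 ± 0.26 in resting cells, and these arrays overlapped when stimulated. The size of the stimulation effect was -2.45 ± 0.26 in Gli2A Tg, -1.60 ± 0.26 in Gli2R Tg and -0.96 ± 0.26 in WT cells. Without both Gli2A Tg arrays that stand apart, an alternative chosen after seeing the data, Gli2A Tg exceeded WT by 0.85 in stimulated and 2.82 in resting cells. At rest the summed intensity of the 13 macrophage and monocyte markers was also highest in Gli2A Tg cells. Gli2R Tg arrays lay below WT in that sum and above WT in Ptgir. It was 109561 to 116546 in Gli2A Tg, 47580 to 62447 in Gli2R Tg and 66137 to 102161 in WT arrays. In stimulated cells that sum was 1892 to 5595 in Gli2A Tg, 1218 to 1622 in Gli2R Tg and 1389 to 2055 in WT arrays. The 9 erythroid and platelet markers separated the resting genotypes without overlap, with sums of 21487 to 46546 in Gli2A Tg, 3057 to 6192 in Gli2R Tg and 13444 to 20332 in WT arrays. The part of these cells in the Ptgir differences and in the other resting genotype differences was not tested.

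Ptger2 and Ptger4 encode receptors for prostaglandin E2, the main prostanoid of inflamed tissue. Ptger2 is on chromosome 14 (44988111 to 45003820) and was read from probe set 1449310_at. In stimulated cells it was 10.44, 10.25 and 10.46 in Gli2A Tg, 10.40, 10.18 and 10.24 in Gli2R Tg and 10.27, 10.40 and 10.80 in WT arrays. In resting cells it was 9.90, 9.52 and 9.45 in Gli2A Tg, 9.64, 9.99 and 8.61 in Gli2R Tg and 8.85, 9.68 and 9.17 in WT arrays. All 9 stimulated arrays lay above all 9 resting ones, and the resting arrays spread more widely. Ptger2 rose by 0.96 ± 0.17 (1.94-fold, adjusted p = 1.51e-04). Taken by genotype, it rose by 0.76 ± 0.29 in Gli2A Tg (adjusted p = 0.0495), 0.86 ± 0.29 in Gli2R Tg (adjusted p = 0.0274) and 1.26 ± 0.29 in WT cells (adjusted p = 0.00258). The calls in the transgenic cells were weak: that in Gli2A Tg was lost in 11 of 19 alternative settings (largest adjusted p = 0.155) and that in Gli2R Tg in 8 of 18 (largest adjusted p = 0.148), and without resting Gli2R Tg replicate 3 the rise in Gli2R Tg cells was 0.46.

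Ptger4, on chromosome 15 (5233399 to 5244187), has a bright probe set, 1424208_at, and a dimmer one, 1421073_a_at. On the bright one it was 12.47, 12.46 and 12.28 in stimulated Gli2A Tg, 12.56, 12.46 and 12.02 in stimulated Gli2R Tg and 12.55, 12.58 and 12.58 in stimulated WT arrays. Resting arrays gave 11.66, 11.82 and 11.94 in Gli2A Tg, 12.31, 12.26 and 12.07 in Gli2R Tg and 11.87, 11.97 and 11.79 in WT cells. The stimulated arrays were all above the resting ones in Gli2A Tg and WT cells, while in Gli2R Tg cells they overlapped. Ptger4 rose by 0.48 ± 0.08 over the genotypes (1.39-fold, adjusted p = 1.38e-04), by 0.60 ± 0.14 in Gli2A Tg (adjusted p = 0.00309) and by 0.69 ± 0.14 in WT cells (adjusted p = 0.00108). In Gli2R Tg cells the difference was 0.13 ± 0.14, with a 95% interval of -0.17 to 0.44 (adjusted p = 0.5).

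The dimmer probe set of Ptger4 gave a rise of 0.44 ± 0.12 over the genotypes (adjusted p = 0.00602 with probe sets tested one by one). In the same test it rose by 0.90 ± 0.21 in Gli2A Tg (adjusted p = 0.00293) and 0.74 ± 0.21 in WT cells (adjusted p = 0.011). In Gli2R Tg cells the difference was -0.32 ± 0.21 without a call (adjusted p = 0.271), opposite in sign to the bright probe set. Its levels in stimulated cells were 8.25, 8.25 and 8.30 in Gli2A Tg, 7.93, 8.61 and 8.04 in Gli2R Tg and 8.52, 8.73 and 8.67 in WT arrays. In resting cells they were 7.70, 7.10 and 7.30 in Gli2A Tg, 8.55, 8.73 and 8.25 in Gli2R Tg and 8.15, 7.98 and 7.56 in WT arrays. The resting Gli2A Tg arrays were thus all below the resting Gli2R Tg arrays, with a difference of -1.14 ± 0.21 (adjusted p = 0.0140 with probe sets tested one by one, where 1.78% of 34945 probe sets were called). On the bright probe set the same comparison gave -0.41 ± 0.14 without a call (adjusted p = 0.154), also with no overlap between the arrays. The probe sets therefore had the same direction and different sizes at rest.

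Cysltr1 and Cysltr2 encode receptors for cysteinyl leukotrienes, which contract airways and recruit leukocytes. Cysltr1 is on chromosome X (106576509 to 106603679) and has a brighter probe set, 1418944_at, and a dimmer one, 1449282_at. On the brighter one it was 8.65, 9.41 and 9.24 in stimulated Gli2A Tg, 6.88, 7.57 and 6.77 in stimulated Gli2R Tg and 7.86, 7.86 and 8.50 in stimulated WT arrays. In resting cells it was 6.24, 5.44 and 6.08 in Gli2A Tg, 6.05, 6.03 and 5.28 in Gli2R Tg and 5.63, 5.64 and 4.97 in WT arrays. All stimulated arrays lay above all resting ones. Cysltr1 rose by 2.38 ± 0.18 over the genotypes, which is 5.19-fold (adjusted p = 1.68e-08), and by 2.31 ± 0.18 on the dimmer probe set (adjusted p = 1.69e-08). The fit under other settings ranged from 1.69 to 2.8, so the size of the rise depended on the setting.

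Among stimulated arrays the 3 genotypes did not overlap in Cysltr1: Gli2A Tg arrays were the highest, Gli2R Tg arrays the lowest and WT arrays lay between. Gli2A Tg exceeded WT by 1.03 ± 0.32, Gli2R Tg differed from WT by -1.0 ± 0.32 and Gli2A Tg exceeded Gli2R Tg by 2.03 ± 0.32, differences that chose this gene and are given without a test. At rest the differences were 0.50 ± 0.32, 0.37 ± 0.32 and 0.13 ± 0.32 in the same comparisons, and the arrays of all genotypes overlapped. Without stimulated Gli2A Tg replicate 2, an array that stood apart, the stimulated difference of Gli2A Tg from WT was 0.88. The dimmer probe set read 7.14, 8.44 and 7.79 in stimulated Gli2A Tg, 6.14, 6.79 and 5.62 in stimulated Gli2R Tg and 6.92, 6.70 and 6.93 in stimulated WT arrays. It kept the order of the means, with Gli2R Tg and WT arrays overlapping, and gave 0.94 ± 0.31, -0.66 ± 0.31 and 1.60 ± 0.31. Its resting arrays lay between 4.32 and 5.12, under the 25th percentile of gene levels. Because Cysltr1 is on the X chromosome and the sexes were unevenly spread, it was also fitted with sex as a covariate, which gave -0.95 for stimulated Gli2R Tg against WT and 1.94 for stimulated Gli2A Tg against Gli2R Tg.

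Cysltr2, on chromosome 14 (73025672 to 73049114), was read from probe set 1421642_a_at. It was 6.64, 6.51 and 6.94 in stimulated Gli2A Tg, 6.12, 6.70 and 5.81 in stimulated Gli2R Tg and 6.30, 7.0 and 7.44 in stimulated WT arrays. In resting cells it was 6.59, 6.86 and 7.0 in Gli2A Tg, 6.90, 6.70 and 6.67 in Gli2R Tg and 5.88, 6.36 and 6.32 in WT arrays. Stimulated and resting arrays overlapped in every genotype. The stimulation difference was 0.02 ± 0.16, with a 95% interval of -0.32 to 0.35 (adjusted p = 0.929). By genotype it was -0.12 ± 0.27 in Gli2A Tg (adjusted p = 0.773), -0.55 ± 0.27 in Gli2R Tg (adjusted p = 0.123) and 0.72 ± 0.27 in WT cells (adjusted p = 0.0437). The call in WT was lost in 11 of 17 alternative settings (largest adjusted p = 0.209), and the value was 0.46 without stimulated WT replicate 3. In Gli2R Tg cells the opposite difference was called without stimulated Gli2R Tg replicate 2 (-0.79, adjusted p = 0.035).

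Ltb4r1 encodes the high-affinity receptor for leukotriene B4, a chemoattractant for neutrophils and activated T cells. It is on chromosome 14 (55765962 to 55768492) and was read from probe set 1420407_at. In stimulated cells it was 7.42, 7.27 and 7.58 in Gli2A Tg, 6.87, 7.83 and 5.64 in Gli2R Tg and 7.62, 8.11 and 8.41 in WT arrays. In resting cells it was 6.11, 6.64 and 6.03 in Gli2A Tg, 6.11, 4.69 and 5.07 in Gli2R Tg and 6.86, 4.81 and 5.70 in WT arrays. Stimulated arrays lay above resting ones without overlap in Gli2A Tg and WT cells, and overlapped with them in Gli2R Tg cells. Ltb4r1 rose by 1.64 ± 0.31 over the genotypes (3.11-fold, adjusted p = 2.92e-04), and the fit under other settings ranged from 1.08 to 2.06. It rose by 2.26 ± 0.54 in WT (adjusted p = 0.00305) and by 1.49 ± 0.54 in Gli2R Tg cells (adjusted p = 0.0364). The last call was lost in 5 of 17 alternative settings, and without stimulated Gli2R Tg replicate 2 the value was 0.97 (adjusted p = 0.179). In Gli2A Tg cells the difference was 1.16 ± 0.54 (adjusted p = 0.0990), and it was called with a pseudocount of 64 and in a fit of these arrays alone.

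S1pr1 encodes the sphingosine 1-phosphate receptor that governs lymphocyte exit, and S1pr4 a related receptor of blood cells. S1pr1 is on chromosome 3 (115710433 to 115715055) and was read from probe set 1423571_at. It was 8.83, 8.80 and 8.50 in stimulated Gli2A Tg, 9.21, 8.78 and 8.99 in stimulated Gli2R Tg and 8.59, 8.90 and 8.44 in stimulated WT arrays. Resting arrays gave 11.30, 10.98 and 10.41 in Gli2A Tg, 11.90, 11.64 and 11.25 in Gli2R Tg and 11.63, 11.68 and 11.47 in WT cells. All stimulated arrays lay below all resting ones. S1pr1 fell by 2.58 ± 0.13 over the genotypes, which is 5.98-fold lower (adjusted p = 1.38e-10), and it fell in each of them: the differences were -2.19 ± 0.22 in Gli2A Tg (adjusted p = 1.28e-06), -2.61 ± 0.22 in Gli2R Tg (adjusted p = 2.18e-07) and -2.95 ± 0.22 in WT cells (adjusted p = 7.07e-08).

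At rest every Gli2A Tg array was below every WT array in S1pr1. The difference of -0.70 ± 0.22 did not pass (adjusted p = 0.254), nor did that from Gli2R Tg, also -0.70 ± 0.22 (adjusted p = 0.114), where the arrays overlapped. The comparison with Gli2R Tg was called when only genes above the median level were tested (adjusted p = 0.0452), with eBayes trend and robust options (adjusted p = 0.0472) and without resting Gli2A Tg replicate 1 (adjusted p = 0.0481). The lowest resting value was that of Gli2A Tg replicate 3, which stood apart from the other arrays. Without it the differences were -0.45 from WT and -0.46 from Gli2R Tg, with no call.

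S1pr4 is on chromosome 10 (81497745 to 81500137) and was read from probe set 1451024_at. It was 10.12, 9.73 and 10.50 in stimulated Gli2A Tg, 10.22, 10.49 and 10.38 in stimulated Gli2R Tg and 10.07, 10.44 and 10.10 in stimulated WT arrays. Resting arrays gave 12.41, 12.62 and 11.63 in Gli2A Tg, 12.77, 12.76 and 13.07 in Gli2R Tg and 12.40, 12.52 and 12.56 in WT arrays. All stimulated arrays lay below all resting ones. S1pr4 fell by 2.30 ± 0.14 over the genotypes (4.92-fold lower, adjusted p = 8.91e-10). The differences were -2.10 ± 0.24 in Gli2A Tg (adjusted p = 3.26e-06), -2.50 ± 0.24 in Gli2R Tg (adjusted p = 5.72e-07) and -2.29 ± 0.24 in WT cells (adjusted p = 1.50e-06). Resting Gli2A Tg arrays lay below resting Gli2R Tg arrays without overlap. The difference of -0.65 ± 0.24 was not called (adjusted p = 0.172) and was -0.35 without resting Gli2A Tg replicate 3.

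Cnr2 is on chromosome 4 (135895189 to 135920219) and was read from probe set 1450476_at. In stimulated cells it was 5.56, 6.49 and 5.54 in Gli2A Tg, 4.34, 4.49 and 4.31 in Gli2R Tg and 5.63, 5.71 and 5.68 in WT arrays. Resting arrays read 8.44, 8.87 and 8.69 in Gli2A Tg, 8.08, 8.23 and 8.46 in Gli2R Tg and 8.40, 8.57 and 8.57 in WT arrays. All stimulated arrays lay far below all resting ones. Cnr2 fell by 3.17 ± 0.12 over the genotypes, which is 9.02-fold lower (adjusted p = 8.61e-12), and the fit under other settings ranged from -4.06 with a pseudocount of 1 to -2.17 with a pseudocount of 64.

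Among stimulated arrays the Gli2R Tg arrays lay below all others in Cnr2, the difference for which the gene was picked. Gli2R Tg differed from WT by -1.30 ± 0.21, Gli2A Tg exceeded Gli2R Tg by 1.48 ± 0.21 and Gli2A Tg differed from WT by 0.19 ± 0.21, a value of -0.13 without stimulated Gli2A Tg replicate 2. On the deposited scale the stimulated intensities were 27.7, 60.7 and 35.8 in Gli2A Tg, 5.24, 6.69 and 5.86 in Gli2R Tg and 31.8, 34.2 and 35.3 in WT arrays. The Gli2R Tg values are near the bottom of the scale, so the size of the difference depended on the number added before the logarithm: Gli2R Tg against WT gave -2.67 with a pseudocount of 1 and -0.53 with 64. At rest Gli2A Tg differed from WT by 0.15 ± 0.21 and Gli2R Tg from WT by -0.26 ± 0.21, with overlapping arrays. The stimulation effect was -2.80 ± 0.21 in Gli2A Tg, -3.88 ± 0.21 in Gli2R Tg and -2.84 ± 0.21 in WT cells. In Gli2R Tg cells it was -5.68 with a pseudocount of 1 and -2.37 with 64, so its size is not fixed by these data.

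The summed intensity of the 9 B cell markers measured was 482 to 1999 in stimulated Gli2A Tg, 561 to 808 in stimulated Gli2R Tg and 661 to 1002 in stimulated WT arrays. At rest it was 1514 to 2897 in Gli2A Tg, 1063 to 1790 in Gli2R Tg and 939 to 1514 in WT arrays. The highest stimulated sum, 1999, was that of Gli2A Tg replicate 2, an array that stood apart, which also had the highest stimulated Cnr2 value. Other arrays did not pair in this way. Stimulated Gli2R Tg and WT arrays overlapped in the sum and not in Cnr2. The highest resting sum, 2897, was that of Gli2A Tg replicate 3 (Cnr2 8.69), while resting Cnr2 was highest in Gli2A Tg replicate 2 (8.87). The macrophage and monocyte sums given with Ptgir moved downward with stimulation as Cnr2 did. In stimulated cells they were 1218 to 1622 in Gli2R Tg, 1389 to 2055 in WT and 1892 to 5595 in Gli2A Tg arrays. These ranges rose in the order of the Cnr2 means, and those of neighbouring genotypes overlapped. The part of either cell type in the Cnr2 values was not tested.

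**Figure D2:**
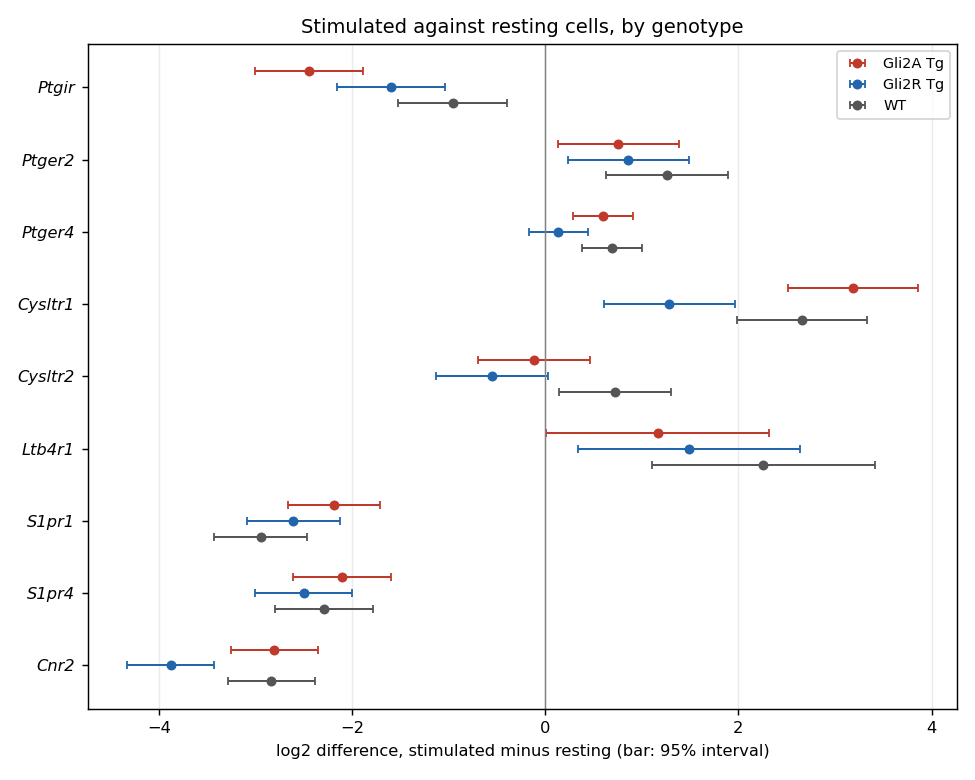
Difference between stimulated and resting cells for each receptor, in log2 units, by genotype. Points are fitted differences with their 95% interval. S1pr1, S1pr4, Cnr2 and Ptgir lie left of 0 in every genotype, and Cysltr2 lies on both sides, with -0.12 in Gli2A Tg, -0.55 in Gli2R Tg and 0.72 in WT cells.

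Within each genotype alone, stimulation was tested for the 6 receptors not picked on genotype. In Gli2A Tg cells 4 of them were called, 2 higher (Ptger2, Ptger4) and 2 lower (S1pr1, S1pr4), beside 42.9% of all genes. In Gli2R Tg cells 4 were called, 2 higher (Ptger2, Ltb4r1) and the same 2 lower, beside 42.3% of all genes. In WT cells all 6 were called, 4 higher (Ptger2, Ptger4, Ltb4r1, Cysltr2) and 2 lower, beside 41.7% of all genes. A call in WT that was missed in transgenic cells does not show a difference between genotypes, and the differences in response were therefore tested as interactions.

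On the brightest probe set, with the settings given above, limma called none of the 6 receptors in a genotype comparison. The exceptions, all between resting Gli2A Tg and Gli2R Tg cells, are the dimmer probe set of Ptger4 and the alternatives given with S1pr1. In stimulated cells Gli2A Tg against WT gave 0 calls beside 0.137% of all genes, Gli2R Tg against WT 0 beside 0.044% and Gli2A Tg against Gli2R Tg 0 beside 0.231%. In resting cells these were 0 beside 0.55%, 0 beside 0% and 0 beside 2.4%. At an unadjusted p under 0.05 there were 0, 2 and 0 receptors in stimulated and 2, 1 and 3 in resting cells. Differences of Gli2A Tg from WT ranged over the 6 receptors between -0.62 and 0.06 in stimulated and between -0.70 and 0.63 in resting cells. Those of Gli2R Tg from WT ranged between -1.27 and 0.35 in stimulated and between -0.50 and 0.57 in resting cells. With so few calls among all genes, a missing call does not show that the receptors were alike.

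The values at an unadjusted p under 0.05 that have not been named were those of Cysltr2, Ptger4 and Ltb4r1. Stimulated Gli2R Tg cells differed from stimulated WT cells by -0.70 ± 0.27 in Cysltr2 (adjusted p = 0.428) and by -1.27 ± 0.54 in Ltb4r1 (adjusted p = 0.490). Single arrays carried much of both: Cysltr2 was -0.44 without stimulated WT replicate 3, and Ltb4r1 was -0.70 without stimulated Gli2R Tg replicate 3. Resting Gli2A Tg cells differed from resting WT cells by 0.63 ± 0.27 in Cysltr2 (adjusted p = 0.440). Resting Gli2R Tg cells differed from resting WT cells by 0.34 ± 0.14 in Ptger4 (adjusted p = 0.439). Resting Gli2A Tg and WT arrays of Cysltr2 did not overlap, and neither did resting Gli2R Tg and WT arrays of Ptger4. The share of all genes that separate in this way is not given here. Such separation, here and for the receptors above, is therefore a description and does not replace a call.

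Differences in the stimulation response also gave 0 calls among the 6 receptors. All genes were called at 0.011% for Gli2A Tg against WT, 0% for Gli2R Tg against WT and 0.11% for Gli2A Tg against Gli2R Tg. At an unadjusted p under 0.05 there were 2, 2 and 1 receptors. Cysltr2 responded differently from WT by -0.84 ± 0.38 in Gli2A Tg (adjusted p = 0.487) and by -1.27 ± 0.38 in Gli2R Tg cells (adjusted p = 0.337). The fall of S1pr1 was smaller in Gli2A Tg than in WT cells by 0.76 ± 0.32 (adjusted p = 0.443). For Ptger4 the response in Gli2R Tg differed from WT by -0.56 ± 0.20 (adjusted p = 0.448) and that in Gli2A Tg from Gli2R Tg by 0.46 ± 0.20 (adjusted p = 0.437).

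**Figure D3:**
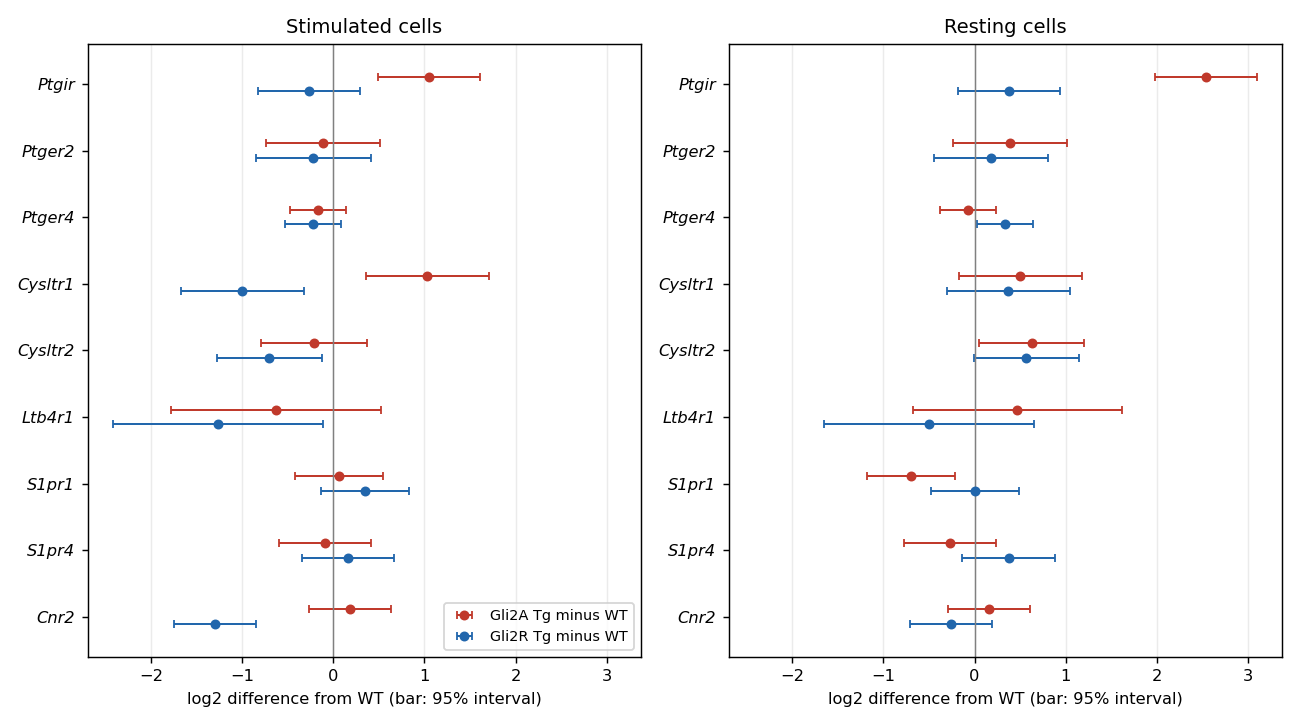
Difference of Gli2A Tg and Gli2R Tg cells from WT cells for each receptor, in log2 units, in stimulated (left) and resting (right) cells. Points are fitted differences with their 95% interval, and Ptgir, Cysltr1 and Cnr2 were picked for differences of this kind. Ptgir lies at 1.05 and 2.54 for Gli2A Tg in stimulated and resting cells, and Cnr2 at -1.30 for Gli2R Tg in stimulated cells.

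Other genes of the same pathways were grouped into lists. Their counts can be read beside all genes, of which 27.7% rose and 29.5% fell with the genotypes averaged. In the stimulation comparison averaged over genotypes, 2 of 6 other prostanoid receptor genes rose and 1 fell (median difference 0.15, all genes 0.01). The thromboxane receptor Tbxa2r fell by 2.51 ± 0.18 (adjusted p = 6.64e-09), while Ptgdr2, a prostaglandin D2 receptor, rose by 0.62 ± 0.16 and Ptger1 by 0.22 ± 0.08. Ptgdr2 and Ptger1 had mean levels of 4.74 and 4.47, under the 25th percentile, and the call of Ptger1 was lost in 12 alternative settings. Of 10 genes of prostanoid synthesis and breakdown 2 rose and 6 fell (median -1.24). Hpgd, the enzyme that inactivates prostaglandins, fell by 5.77 ± 0.28 on the log2 scale. The differences were -4.02 ± 0.27 for the prostacyclin synthase Ptgis, -2.32 ± 0.21 for Pla2g4a, the phospholipase that frees arachidonic acid, and -2.13 ± 0.18 for the thromboxane synthase Tbxas1. Macrophages are known to express several of these enzymes, and the 13 macrophage and monocyte markers fell in the same comparison, with a median difference of -5.14. Their part in it was not tested.

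Of 9 leukotriene synthesis genes and related receptors 1 rose and 3 fell (median -0.38). Alox5ap, the protein that 5-lipoxygenase needs in cells, fell by 2.62 ± 0.18 and the formyl peptide receptor Fpr2 fell by 3.41 ± 0.26, while Oxgr1 rose by 1.08 ± 0.22 around a dim mean level of 5.07. Lta4h, which makes leukotriene B4, fell by 0.83 ± 0.07 on its brightest probe set and gave 0.28 on the mean of its probe sets. Of 10 sphingosine 1-phosphate genes 2 rose and 5 fell (median -0.36), with a difference of -2.92 ± 0.34 for the kinase Sphk1. The receptors S1pr3 and S1pr5 differed by -0.84 ± 0.14 and -0.61 ± 0.19, S1pr5 around a dim mean level of 4.51, and Mfsd2b, an exporter of the lipid, by -0.63 ± 0.21 on its brightest probe set and 0.19 on the mean of its probe sets.

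Of 4 regulators of S1pr1 2 rose and 2 fell. Cd69, the activation marker that binds S1pr1 and pulls it from the surface, rose by 2.87 ± 0.19 (adjusted p = 2.76e-09), and Klf2 fell by 2.72 ± 0.12 (adjusted p = 3.61e-11). Foxo1, which drives Klf2, fell by 1.71 ± 0.09, and Stat3 rose by 0.89 ± 0.13. In the same arrays the S1pr1 transcript itself fell by 2.58.

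Of 10 endocannabinoid genes 1 rose and 7 fell (median -1.06). Enzymes that make or break down these lipids were lower, with differences of -2.93 ± 0.20 for Naaa, -1.80 ± 0.22 for Mgll, which degrades the endocannabinoid 2-AG, -1.40 ± 0.25 for Napepld and -1.12 ± 0.09 for Abhd12. Of 14 lysophospholipid and other lipid receptors 6 rose and 3 fell (median 0.23). Gpr183, the oxysterol receptor that positions lymphocytes, rose by 1.49 ± 0.11, while the differences were -3.43 ± 0.23 for Gpr34, -1.81 ± 0.11 for Lpar6 and -1.19 ± 0.23 for Lpar2, a lysophosphatidic acid receptor. Of 24 genes that act below Gs and Gi coupled receptors 3 rose and 16 fell (median -0.64). Crem, a cyclic AMP-responsive transcription factor, rose by 2.95 ± 0.14, while the differences were -2.92 ± 0.11 for both the adenylate cyclase Adcy7 and the arrestin Arrb2 and -2.38 ± 0.17 for the phosphodiesterase Pde4b.

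**Figure D4:**
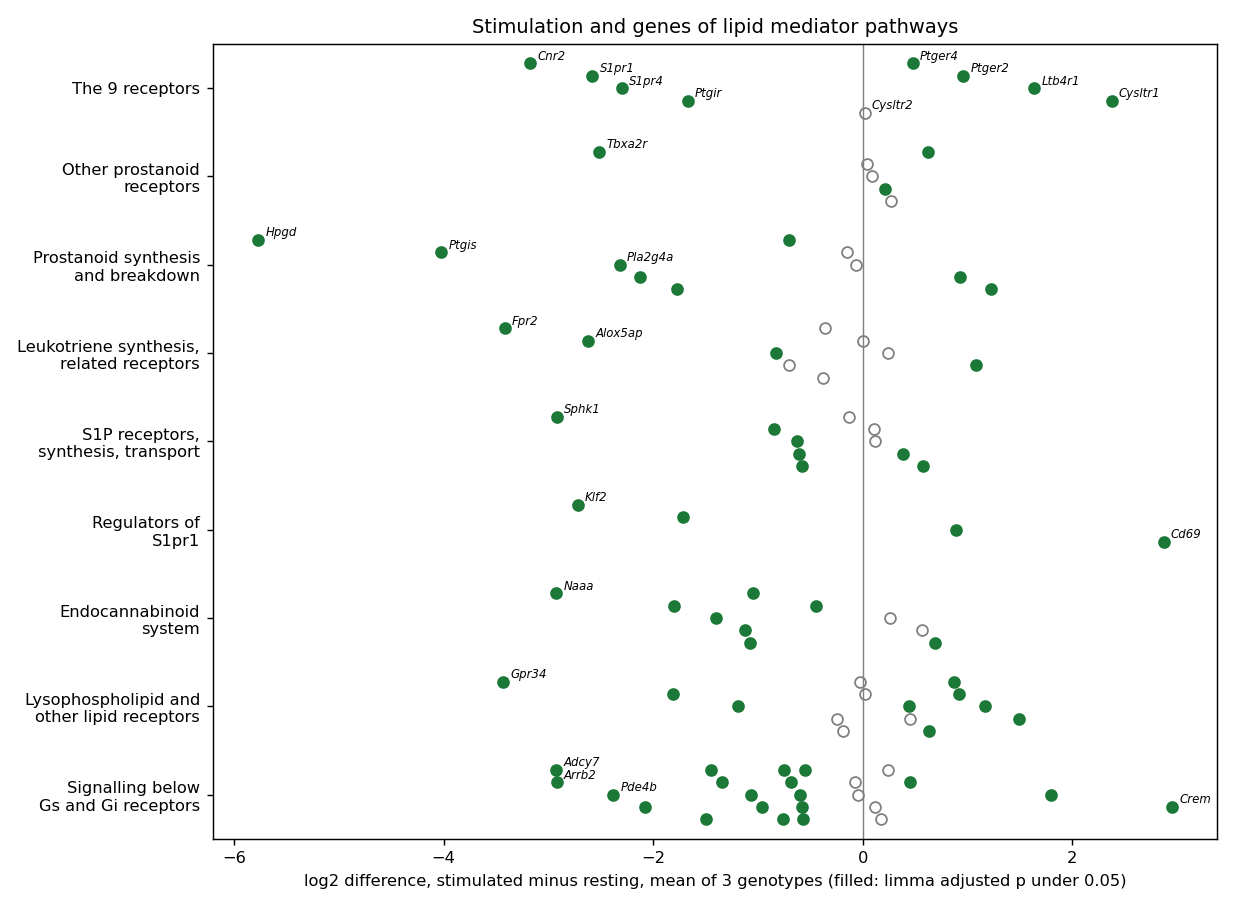
Difference between stimulated and resting cells averaged over the 3 genotypes, in log2 units, for the 9 receptors and 8 lists of related genes. Each point is a gene, filled where limma gave an adjusted p under 0.05. The largest fall is Hpgd at -5.77 and the largest rise Crem at 2.95.

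Genotype moved few of the 87 pathway genes measured. Calls were made only between resting Gli2A Tg and resting Gli2R Tg cells, with 2 genes higher and 3 lower, beside 2.4% of all genes. Cd69 differed by -1.62 ± 0.33 (adjusted p = 0.0179), Klf2 by -1.08 ± 0.21 (adjusted p = 0.0140), Gpr183 by -0.80 ± 0.20 (adjusted p = 0.0494), the sphingosine 1-phosphate phosphatase Sgpp2 by 1.25 ± 0.31 (adjusted p = 0.0494) and the phosphodiesterase Pde4d by 0.78 ± 0.18 (adjusted p = 0.0384). All 5 lost their call in a fit of the compared groups alone, where the differences themselves were unchanged, and without resting Gli2A Tg replicate 3. Without that array the differences were -1.32 for Cd69, -0.88 for Klf2, -0.60 for Gpr183, 1.18 for Sgpp2 and 0.86 for Pde4d. On the mean of a gene's several probe sets Pde4d was 0.14 (adjusted p = 0.701) and Gpr183 -0.44 (adjusted p = 0.276). The macrophage and monocyte sums (109561 to 116546 in Gli2A Tg, 47580 to 62447 in Gli2R Tg) and the erythroid and platelet sums (21487 to 46546 in Gli2A Tg, 3057 to 6192 in Gli2R Tg) differed between the same groups, and their part was not tested. S1pr1, in the same comparison, was -0.70 ± 0.22 and not called.

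The genes whose level followed each receptor most closely over the 18 arrays were taken as those with the highest Pearson correlation among genes above the median level. They are a description, and the difference between stimulated and resting arrays, called in 57.2% of all genes, enters them. Differences between genotypes enter them too. A genotype pattern shared with the receptor therefore follows in part from how these genes were picked, and is not separate evidence. For Ptgir they were H6pd (0.936), the transcription factor Sox4 (0.928) and Spsb1 (0.922). All 3 had their highest group mean in resting Gli2A Tg cells, as Ptgir did: Sox4 averaged 11.05 in stimulated Gli2A Tg, 10.12 in stimulated Gli2R Tg and 9.82 in stimulated WT cells, and 12.93, 10.73 and 11.19 in the resting cells of the same genotypes. For Cnr2 they were Gpx4 (0.985), an enzyme that reduces lipid peroxides, the transglutaminase Tgm2 (0.979) and Tceal9 (0.977). Tgm2 also had its lowest mean, 7.52, in stimulated Gli2R Tg cells, beside 9.39 in stimulated Gli2A Tg and 8.94 in stimulated WT cells.

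For Cysltr1 the closest genes were F2r (0.941), which encodes a thrombin receptor, Bhlhb9 (0.937) and Tent2 (0.935). S1pr1 was closest to Acap1 (0.995), Cnn2 (0.991) and Rasal3 (0.990), and S1pr4 to Pold4 (0.992), the transcription factor Lef1 (0.990) and Ccs (0.990). Ptger4 was closest to the cytokine genes Ifng (0.922) and Il21 (0.908) and to Gem (0.906), and Ptger2 to Hif1a (0.930), Skil (0.909) and Pdcd1 (0.904), the gene of the inhibitory receptor PD-1. Ltb4r1 was closest to Slc6a6 (0.901), Rnf19b (0.883) and Zkscan17 (0.853). Cysltr2, which did not separate stimulated from resting arrays, reached only 0.712 with Dcp1b, 0.627 with Mlkl and 0.610 with Rora.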

How the data were processed

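The deposited value table of 45101 probe sets holds 18 Affymetrix arrays as linear intensity values, made by the authors with affy (version not given), per the submitters' processing notes. Background correction and summary method are not given in the sources used here. The 2% trimmed mean of the deposited intensity was 500 in each array, and medians were 55.5 to 76.3. For the RNA, the labels' protocols give a Stratagene column kit as well as Trizol.

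Of the probe sets, 34945 had 1 gene symbol in the platform annotation, 932 several and 9160 none. The deposited intensity was turned into log2(value + 16) and quantile normalized, and the probe set with the highest mean over the arrays stood for its gene (18193 genes). A group means model of 18 arrays was fitted in limma 3.58.1 (R 4.3.3, lmFit and eBayes, 12 residual degrees of freedom), with 13 comparisons. P-values were adjusted over all genes of a comparison by Benjamini and Hochberg, with calls under 0.05. Precision is limited by 3 arrays a group. The scripts were tested on simulated data.

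Named genes were all 9 members, up to 4 called genes a list with the largest stimulation differences, called list genes in genotype comparisons (up to 4 a list) and the 3 genes most correlated with each member, without clone and predicted names. Members and lists were chosen with earlier results of these data known. List genes with no probe set of their own were not analysed here. Alternatives covered normalization, filter, pseudocount, probe set rule, variance model, array weights, the compared groups alone, sex as a covariate, the replicate number as a block and single arrays left out. Leaving out both arrays that stand apart was added after seeing the data.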

Additional observations from a re-analysis of the deposited data

How the results depend on the processing

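The 8 stimulation calls averaged over genotypes kept their direction and call in every alternative in which the receptor was tested, with at least 29 alternatives each. Counted over members, this comparison gave 4 calls when only genes above the median level were tested, since 5 members lie below it. Under median centring in place of quantile normalization, the typical gene stood at 0.117 on the log2 scale. Cysltr2 did not pass and changed sign, with -0.032 under median centring, -0.17 under the deposited scaling and between -0.069 and 0.121 with single arrays left out. It turned without stimulated Gli2A Tg replicate 3 (-0.022), stimulated Gli2R Tg replicate 2 (-0.062), stimulated WT replicate 3 (-0.069), resting Gli2A Tg replicate 1 (-0.019) or resting WT replicate 1 (-0.032).

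In Gli2R Tg cells stimulation called 2 of the 6 other receptors in a fit of the compared groups alone, and between 2 and 4 with single arrays left out, the lowest without resting Gli2R Tg replicate 3 or stimulated Gli2R Tg replicate 1. Between resting Gli2A Tg and resting Gli2R Tg cells, 1 receptor was called with genes above the median level, 1 with eBayes trend and robust options, 1 with probe sets averaged by gene (Ptger4, adjusted p = 0.0144), and between 0 and 1 with single arrays left out (1 without resting Gli2A Tg replicate 1). Cysltr2 in Gli2A Tg cells turned to 0.070 without both arrays that stand apart. On the mean of probe sets Ptger4 in Gli2R Tg cells turned to -0.091, Lta4h to 0.28 and Mfsd2b to 0.19. The cause of these changes was not tested.

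Same-numbered arrays of different groups correlated at -0.06 to 0.10 in their deviations from the group means. The medians were 0.018, 0.006 and 0.041 for replicate numbers 1, 2 and 3, all above the median of -0.009 for arrays of different numbers. For 12 of 18 arrays the single most correlated array of another group had the same number. The correlations were small, and the main fit did not pair the samples by number. With the replicate number as a block, the call of Ptger2 in Gli2A Tg cells was lost (0.76, adjusted p = 0.0612). Of 40 tested receptor values, 39 kept their direction and stayed called or not called as before, and these include values without a call in the main fit.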
